A study of Homo sapiens with 2 samples.

Results

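Membrane proteins and secreted cargo move between organelles in vesicles that are shaped by protein coats, filled by adaptors and returned by sorting complexes. The genes described here were those whose platform symbol names a subunit of the adaptor complexes AP-1 to AP-4, the coat COPI, a SEC protein (chiefly the coat COPII, without the SEC61 to SEC63 translocon genes), a vacuolar protein sorting (VPS) protein or a sorting nexin (SNX). Of 123 such symbols on the platform, 104 had a value on both arrays and 19 had none. They are 104 of 11579 named genes with a value. For a gene with several probes, the brightest on average stood for it. The symbols without a value were AP1AR, AP1S3, AP3B2, COPG2IT1, COPZ2, SEC14L3, SEC14L4, SEC14L5, SEC16B, SEC1P, SEC31B, SNX9, SNX12, SNX18, SNX20, SNX29, SNX31, VPS13A-AS1 and VPS9D1-AS1.

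The arrays compared cultures of Huh7, an established line from a human hepatocellular carcinoma, infected with a lentiviral vector (vector, 1 array) or with a lentivirus carrying a short hairpin against CD133 (shCD133, 1 array). CD133, encoded by PROM1, marks liver cancer stem cells, and the series concerns its control by the transcription factor STAT3. Both groups carry a lentivirus, only 1 of them the hairpin, and loss of CD133 and presence of the hairpin cannot be told apart. With 1 array per group there is no replicate error and no test, so every value below describes these 2 arrays. Values are log2 intensities on an Illumina bead array, as the authors normalized them, and differences are shCD133 minus vector on the log2 scale. A difference of 1 is 2-fold, and 2-fold is the size used below for a count. In bulk RNA, fewer cells with a transcript and less of it per cell cannot be told apart.

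In this pathway COPII carries cargo from the endoplasmic reticulum to the Golgi and COPI carries it back and between Golgi cisternae. AP-2 acts with clathrin at the plasma membrane, AP-1 with clathrin at the trans-Golgi network and endosomes, and AP-3 and AP-4 on routes to lysosomes and from the Golgi. Retromer and many sorting nexins return receptors from endosomes. ESCRT complexes bud vesicles into them, and HOPS, CORVET, GARP and EARP tether vesicles before fusion. Hepatocytes depend on these routes to secrete plasma proteins and lipoproteins and to recycle receptors.

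The targeted gene PROM1 differed by -2.75, from 13.58 with vector to 10.83 with shCD133. Of 11 hepatocyte markers 9 had a value, between 11.65 and 15.48 with vector and between 11.99 and 15.47 with shCD133. Markers of T cells, B cells, endothelial cells and fibroblasts with a value stayed at or under 9.71 on both arrays, CD3D and CD2 having a median difference of -0.97. CD68 and CD14, the 2 of 4 macrophage markers with a value, lay between 8.32 and 9.62 with vector. With shCD133 they lay between 9.53 and 9.92, a median difference of 0.75. Their part in the results was not tested.

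Most coat and sorting genes differed little between the arrays, and the few that stood apart were nearly all lower with shCD133. Among the 104 genes, 11 (10.6%) were at least 2-fold lower, against 8.26% of all named genes, and 1 (0.962%) was at least 2-fold higher, against 2.08%. At a 1.5-fold size 19 (18.3%) were lower and 7 (6.73%) higher, against backgrounds of 16.3% and 12.3% of all named genes. Their median difference was 0.06, beside 0.11 over all named genes, and 53 lay above 0 and 51 below. The share of 2-fold lower genes was thus near the background. What follows describes which subunits they were.

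**Figure D1:**
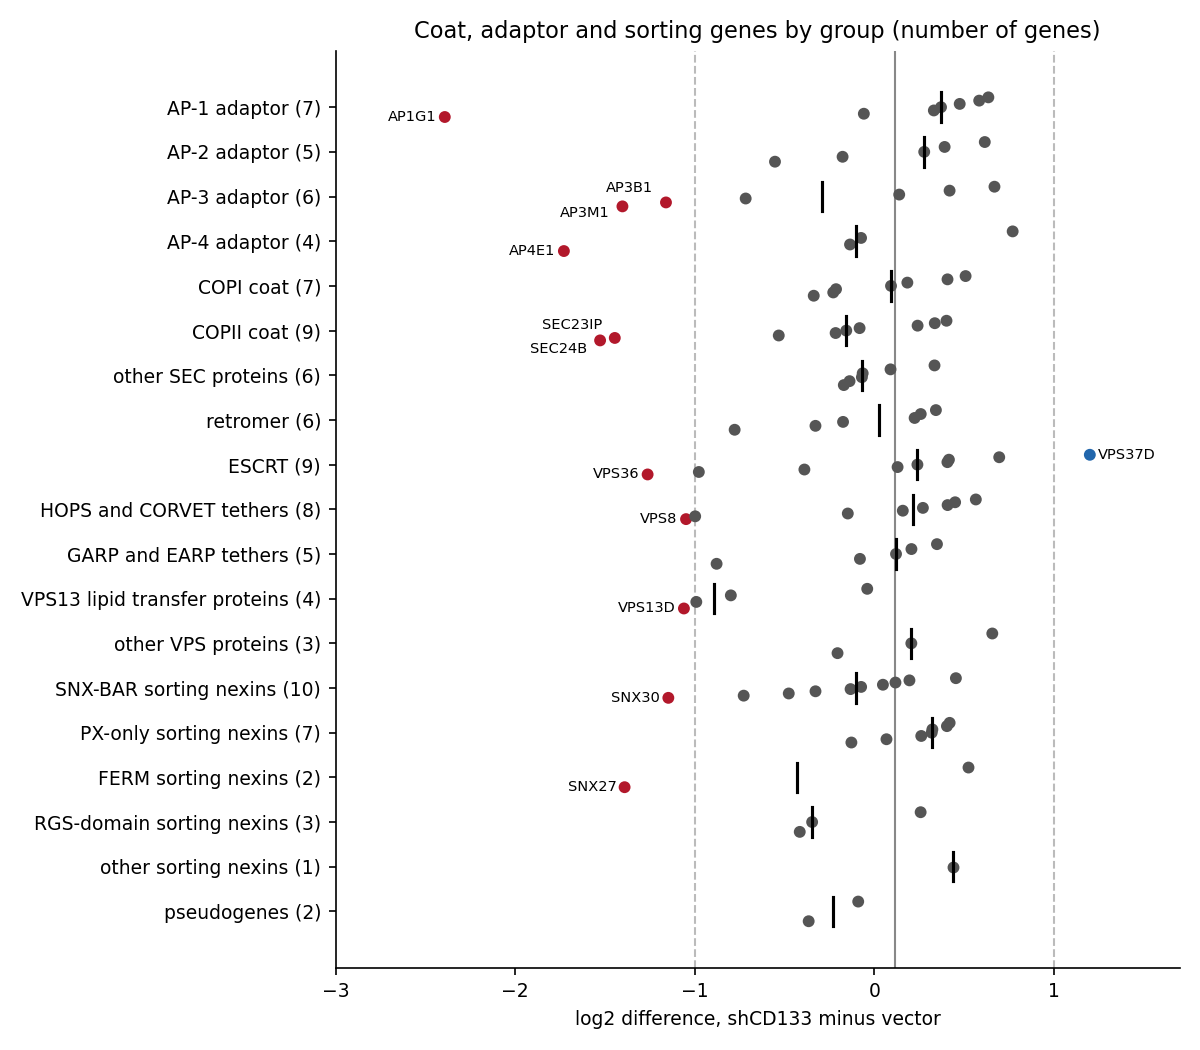
Log2 difference (shCD133 minus vector, x axis) of the 104 coat, adaptor and sorting genes by group, with 1 point per gene. Black bars are group medians, the grey line is the median of all named genes (0.11) and dashed lines mark 2-fold. The 11 genes at least 2-fold lower (red) are spread over 9 groups, and VPS37D (blue) is the 1 gene at least 2-fold higher.

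The 11 lower genes were AP1G1, AP3M1, AP3B1, AP4E1, SEC24B, SEC23IP, VPS36, VPS8, VPS13D, SNX27 and SNX30. They came from every class but COPI: 4 of 22 AP subunits, 2 of 23 sorting nexins, 3 of 35 VPS genes, 2 of 15 SEC genes and 0 of 7 COPI genes. Read against 8.26% of all named genes, counts this small set no class apart. The lowest 4 were AP1G1, AP4E1, SEC24B and SEC23IP. No group of 3 or more genes had all of its genes 2-fold different.

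**Figure D2:**
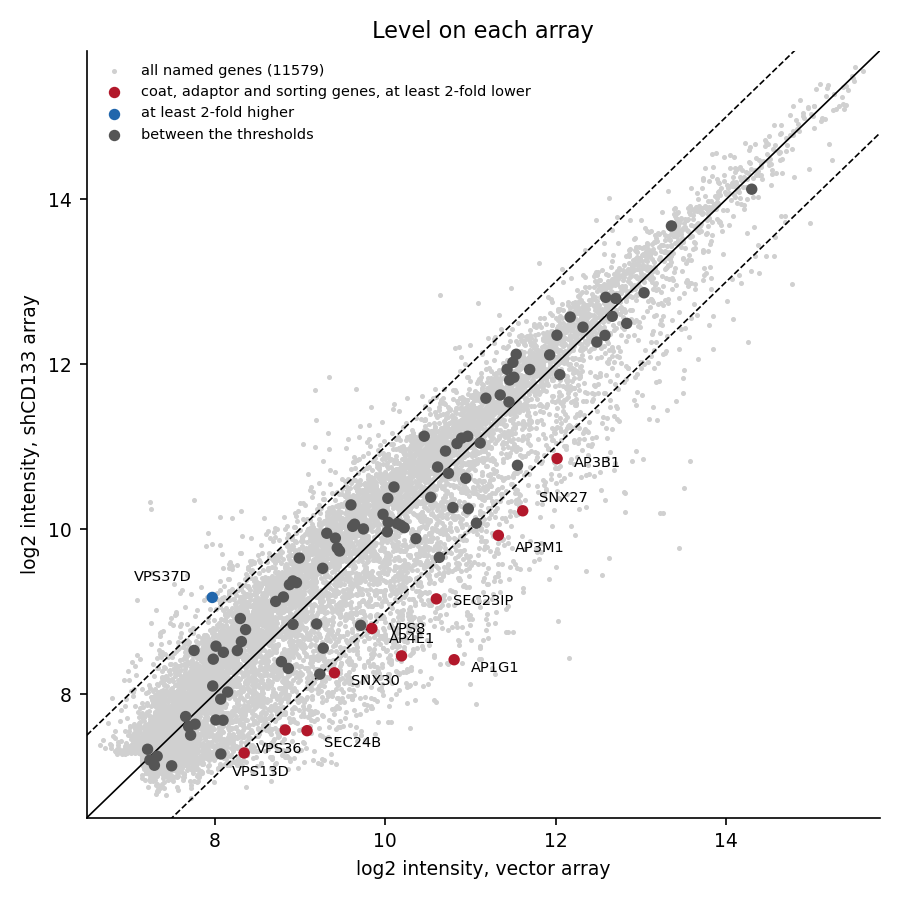
Log2 intensity on the vector array (x axis) against the shCD133 array (y axis). Small light grey points are all 11579 named genes. Larger points are the 104 coat, adaptor and sorting genes, red if at least 2-fold lower, blue if at least 2-fold higher and otherwise dark grey. The solid line is equality and the dashed lines are 2-fold. Of the 104 genes AP1G1 lies farthest below the lines, at 10.81 and 8.42, and 35 of all named genes had a lower difference.

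The AP-1 complex is made of a gamma, a beta, a mu and a sigma subunit, and its gamma subunit was the gene that stood apart. AP1G1, the widely expressed gamma-1 subunit, had a log2 intensity of 10.81 with vector. With shCD133 it had 8.42, which is a difference of -2.39 and a 5.25-fold lower intensity. Its other probe went from 10.81 to 8.27, a difference of -2.54. Both probes therefore place AP1G1 far below its vector level, and 35 of all named genes had a lower difference. AP1G2, which encodes the related gamma-2 subunit, was at 8.81 and 9.18, a difference of 0.37. The remaining AP-1 subunits were also near or above their vector level: AP1B1 differed by 0.33, AP1M1 by 0.58, AP1S1 by 0.47, AP1S2 by 0.63 and the epithelial mu subunit AP1M2 by -0.06. AP-1 thus held 1 strongly lower subunit among 7 measured genes, whose median was 0.37.

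Because the gamma subunits gave the widest contrast between close relatives, their promoters are shown (RefSeq, GRCh38.p14, 250 bases before to 50 after the gene start, 5′ to 3′). Capitals would mark a match to TTCNNNGAA, CACGTG or TGACGT on either strand, and neither promoter holds one. TTCNNNGAA is the site letters of STAT factors, CACGTG those of basic helix-loop-helix factors such as TFEB, and TGACGT those of CREB and ATF factors. CACGTG and TGACGT can overlap by their shared TG.
AP1G1, chr16:71808785-71809084, minus strand: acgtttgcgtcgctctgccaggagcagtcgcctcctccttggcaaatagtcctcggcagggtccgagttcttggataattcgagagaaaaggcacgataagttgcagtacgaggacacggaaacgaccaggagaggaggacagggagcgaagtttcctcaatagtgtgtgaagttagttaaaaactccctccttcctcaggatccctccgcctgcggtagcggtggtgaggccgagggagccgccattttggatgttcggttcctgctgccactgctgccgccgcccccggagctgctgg
AP1G2, chr14:23567742-23568041, minus strand: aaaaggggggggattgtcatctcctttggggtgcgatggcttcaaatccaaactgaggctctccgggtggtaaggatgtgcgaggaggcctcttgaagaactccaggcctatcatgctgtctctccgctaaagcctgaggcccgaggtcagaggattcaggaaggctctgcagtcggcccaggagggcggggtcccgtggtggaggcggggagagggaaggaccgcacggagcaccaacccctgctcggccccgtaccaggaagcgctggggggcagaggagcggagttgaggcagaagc

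AP-2, the clathrin adaptor of the plasma membrane, had no gene 2-fold different. The lowest was the beta subunit AP2B1, which went from 8.86 to 8.31, a difference of -0.55, and its other probe differed by -0.69. AP2S1, the sigma subunit, differed by -0.18 and AP2M1, the cargo-binding mu subunit, by 0.28. The alpha subunits AP2A1 and AP2A2 were higher by 0.39 and 0.61.

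AP-3, which sorts cargo to lysosomes and related organelles, was divided. Its mu subunit AP3M1 went from 11.33 to 9.92, a difference of -1.40, and the other AP3M1 probe differed by -1.28. AP3B1, the broadly expressed beta subunit, went from 12.02 to 10.86, a difference of -1.16 on its single probe. The second mu gene, AP3M2, was lower by a smaller size (-0.72, from 9.27 to 8.56). Against these, the delta subunit AP3D1 was higher by 0.67, AP3S2 by 0.42 and AP3S1 by 0.14. Thus 2 of 6 AP-3 genes were at least 2-fold lower and 3 lay above 0.

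In AP-4, which carries cargo from the trans-Golgi network, the epsilon subunit was the lower gene. AP4E1 went from 10.19 to 8.46, a difference of -1.73 or 3.31-fold lower. AP4M1 was higher by 0.77, from 7.76 to 8.53. AP4B1 differed by -0.07. AP4S1 differed by -0.14 at values under 8 on both arrays, where signal was not told from background. For AP-1 and AP-4 the lower gene encodes a large subunit (gamma or epsilon), and for AP-3 it was the other large chain (beta) and the mu chain.

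COPI was the most even of the coats. Its 7 measured genes lay between -0.34 and 0.51, with an SD over genes of 0.33. The SD per probe was 0.34 over all genes with more than 1 probe and 0.24 over the coat and sorting genes. COPB2, which encodes the beta-prime subunit, went from 12.83 to 12.49, COPB1 (beta) from 12.58 to 12.35 and COPA (alpha) from 12.48 to 12.27. These are differences of -0.34, -0.23 and -0.21. The epsilon subunit COPE differed by 0.09, COPZ1 (zeta-1) by 0.18, and the gamma genes COPG1 and COPG2 by 0.51 and 0.41. ARCN1, the delta subunit, whose symbol falls outside the rule, was 2-fold lower, from 12.93 to 11.85 (-1.08), so the even spread does not extend to all of coatomer.

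In COPII, whose inner layer is a SEC23-SEC24 dimer and whose outer layer is SEC13-SEC31, 2 of 9 genes were at least 2-fold lower. No SEC31 gene had a value, so of the outer layer only SEC13 was measured. SEC24B, a cargo-binding subunit, went from 9.08 to 7.56, a difference of -1.53, and its other probes differed by -1.57 and -1.34. SEC23IP, a phospholipase-like protein that binds SEC23 at exit sites, went from 10.60 to 9.15 (-1.45). The other SEC24 genes did not follow SEC24B in size. SEC24C, at 12.17 and 12.57, was higher by 0.40, whereas SEC24A (-0.16) and SEC24D (-0.22) lay under 8 on both arrays. SEC23A differed by -0.53 and its paralog SEC23B by -0.08. SEC13 was higher by 0.34, and SEC16A, the exit-site scaffold, by 0.24. The COPII median was -0.16, and with the trend on gene length removed it was 0.07.

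Many COPI and COPII promoters hold TGACGT, which did not enter the choice of genes. It was found in 10 of their 15 promoters (66.7%), 4 of 7 in COPI and 6 of 8 in COPII. The share was 12.1% of 9356 promoters of named genes, 8.32% of all 27305 promoters in the table, and 5.97% (4) of the other 67 promoters of coat and sorting genes. The GC content was similar, with a median of 63.3% in the coat promoters and 65% in those of named genes. This motif was 1 of 3 searched, and the contrast was drawn after the matches were seen. The windows around the match are shown with TGACGT, or its reverse complement, in capitals (RefSeq, GRCh38.p14, 5′ to 3′ on the strand of the gene, with the match nearest the 3′ end where there was more than 1).
COPA, chr1:160343220-160343265, minus strand: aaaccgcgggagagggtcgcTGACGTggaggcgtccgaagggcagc
COPB1, chr11:14499832-14499877, minus strand: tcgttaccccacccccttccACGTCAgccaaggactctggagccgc
COPB2, chr3:139389631-139389668, minus strand: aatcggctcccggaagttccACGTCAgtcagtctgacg
COPE, chr19:18919366-18919411, minus strand: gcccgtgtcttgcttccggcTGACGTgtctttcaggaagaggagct
SEC13, chr3:10321229-10321274, minus strand: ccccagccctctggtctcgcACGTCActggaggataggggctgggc
SEC16A, chr9:136484698-136484743, minus strand: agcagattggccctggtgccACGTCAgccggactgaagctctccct
SEC23A, chr14:39103214-39103259, minus strand: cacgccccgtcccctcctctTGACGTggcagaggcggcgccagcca
SEC23B, chr20:18507530-18507575, plus strand: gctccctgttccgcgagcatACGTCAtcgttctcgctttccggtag
SEC24A, chr5:134648586-134648631, plus strand: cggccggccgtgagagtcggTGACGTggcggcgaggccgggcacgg
SEC24C, chr10:73744379-73744421, plus strand: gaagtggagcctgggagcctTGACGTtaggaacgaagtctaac

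All 10 of these coat genes lay between -0.53 (SEC23A) and 0.40 (SEC24C), and their median difference was -0.12. The 4 other coat and sorting genes with TGACGT were AP2B1 (4 matches, -0.55), SNX5 (-0.33), SNX21 (0.32) and VPS37B (5 matches, 0.69). The part of the match in the differences was not tested. Both 2-fold lower COPII genes, SEC24B and SEC23IP, had promoters without TGACGT, as did COPG1, COPG2 and COPZ1. CACGTG was found in 13 of 82 promoters of coat and sorting genes (15.9%), against 10.4% for named genes, and in 2 of the 9 2-fold lower genes with a promoter, SEC23IP and VPS8. TTCNNNGAA was found in 5 of 82 (6.10%), against 6.35% for named genes, and in none of the 9. A match is a description of letters, and 22 of the 104 genes had no promoter in the table.

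The other SEC proteins lay close to their vector level. SEC22B, the SNARE of vesicles from the endoplasmic reticulum, differed by -0.07, SEC22A by -0.14 and SEC22C by 0.09. The signal peptidase subunits SEC11A and SEC11C differed by -0.17 and -0.07, and the lipid-binding protein SEC14L1 by 0.33. Its pseudogene SEC14L1P1 (-0.37) and the pseudogene SNX29P2 (-0.09) also fit the rule, and signal from related transcripts on their probes cannot be told apart.

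Retromer, the endosomal complex of VPS26, VPS29 and VPS35, had no gene 2-fold different. VPS35, its backbone, was the lowest and went from 11.55 to 10.77, a difference of -0.78. VPS29 was higher by 0.22, VPS26B by 0.26, and VPS26A differed by -0.17, with its other probe at 0.25. The retriever subunits VPS35L and VPS26C differed by -0.33 and 0.34. The core of retromer thus spanned 1 lower subunit and others on both sides of 0.

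ESCRT held both directions. VPS36, an ESCRT-II subunit that binds ubiquitin, went from 8.83 to 7.57, a difference of -1.26. Its partner VPS25 differed by 0.24. VPS37D, 1 of 4 alternative ESCRT-I subunits, was the only coat or sorting gene at least 2-fold higher, from 7.97 to 9.17 (1.20), the first of these under 8. VPS37B was higher by 0.69, VPS37C by 0.13 and VPS28, another ESCRT-I subunit, by 0.41, whereas VPS37A differed by -0.39. The ATPases that disassemble ESCRT also diverged: VPS4B went from 10.64 to 9.66 (-0.98), just short of 2-fold, and VPS4A from 9.62 to 10.03 (0.41).

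Among the tethers of endosomes and lysosomes, VPS8, the CORVET subunit that binds RAB5, went from 9.84 to 8.80, a difference of -1.05 (other probe -0.86). VPS41, a HOPS subunit that binds RAB7, went from 11.07 to 10.07 (just short of 2-fold), and its other 3 probes ranged from -1.34 to -0.37. Subunits that HOPS and CORVET share were not among the lower genes: VPS11 differed by 0.56, VPS18 by 0.41, VPS16 by 0.16 and VPS33A by -0.15. VPS39, the other HOPS-specific subunit, was higher by 0.45 and VPS33B by 0.27. In GARP and EARP, the tethers of the trans-Golgi network and endosomes, VPS54 went from 9.71 to 8.83 (-0.88, other probe -0.46). VPS51, VPS52 and VPS53 were higher by 0.35, 0.21 and 0.12, and VPS50 differed by -0.08 at values under 8.

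VPS13 proteins are bridge-like lipid transporters at contacts between organelles, and their median was -0.90 over 4 genes. VPS13D went from 8.35 to 7.29 (-1.06), VPS13A from 9.23 to 8.24 (-0.99) and VPS13C from 8.07 to 7.27 (-0.80). Probes disagreed here: the other VPS13A probes ranged from -0.42 to 0.15, and the other VPS13C probe differed by -0.17. With the mean over probes the group median was -0.43, and with the trend on gene length removed it was -0.53. VPS13B was at 7.24 and 7.20, near the lowest value in the table, 6.65, so a difference there could hardly be seen. Of the remaining VPS genes, VPS45, a regulator of SNARE fusion, differed by -0.21 and VPS9D1 by 0.66. VPS72, a subunit of chromatin-remodelling complexes that carries the prefix but is no vesicle protein, differed by 0.21.

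Sorting nexins bind phosphoinositides through a PX domain, and in the SNX-BAR class a BAR domain bends the membrane. SNX27, which recruits receptors with PDZ-binding tails to retromer, went from 11.61 to 10.22, a difference of -1.39 or 2.62-fold lower. SNX17, a related FERM-domain protein that recycles LDL receptor family members and integrins, went the other way, from 11.50 to 12.02 (0.52). Of 10 SNX-BAR genes, SNX30 was at least 2-fold lower, from 9.41 to 8.26 (-1.15). Among SNX-BAR proteins that act with retromer, SNX2 lay at -0.73, SNX6 at -0.48, SNX5 at -0.33 (other probe -0.06) and SNX1 at -0.13 (other probe -0.04). SNX32, a close relative of SNX5 and SNX6, differed by 0.12 at values under 8. SNX7 differed by -0.07, SNX4 by 0.05, SNX8 by 0.20 and SNX33 by 0.45.

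PX-only sorting nexins were the most even of the groups with 7 or more genes, with 6 of 7 above 0, a median of 0.32 and an SD over genes of 0.20. SNX3, which sorts the Wnt carrier WLS with retromer, went from 13.36 to 13.68 (0.32). SNX11 differed by 0.42, SNX22 by 0.40, SNX21 by 0.32, SNX16 by 0.26, SNX10 by 0.07 (other probe -0.16) and SNX24 by -0.13. SNX10 lay under 8 on both arrays, and SNX16, SNX21, SNX22 and SNX24 lay between 8.03 and 8.64. The even spread of this group therefore rests largely on dim genes. Among those with an RGS domain SNX19 differed by -0.42, SNX13 by -0.35 and SNX14 by 0.26 (other probe -0.09). SNX15 was higher by 0.44, and its dimmer probe by 1.10.

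Close relatives were compared within 20 families of 2 or more measured genes, 48 genes in all. The span between the lowest and the highest relative was over 1 in 6 families and under 0.5 in 10, with a median of 0.52. The widest were the gamma subunits of AP-1 (2.76), SEC24 (1.93), VPS37 (1.59), VPS4 (1.39), SNX7 and SNX30 (1.07) and VPS13 (1.02). The VPS13 span runs to VPS13B, at 7.24 and 7.20, where a difference could hardly be seen, so it may not reflect divergence. The VPS37 span runs to VPS37D, which started under 8. The narrowest were SEC11 and the gamma genes of COPI, both 0.10, and the small subunits AP1S1 and AP1S2, 0.16. In no family were all relatives at least 2-fold lower. In 16 of the 20 families the lowest relative was the longer gene of the pair compared.

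**Figure D3:**
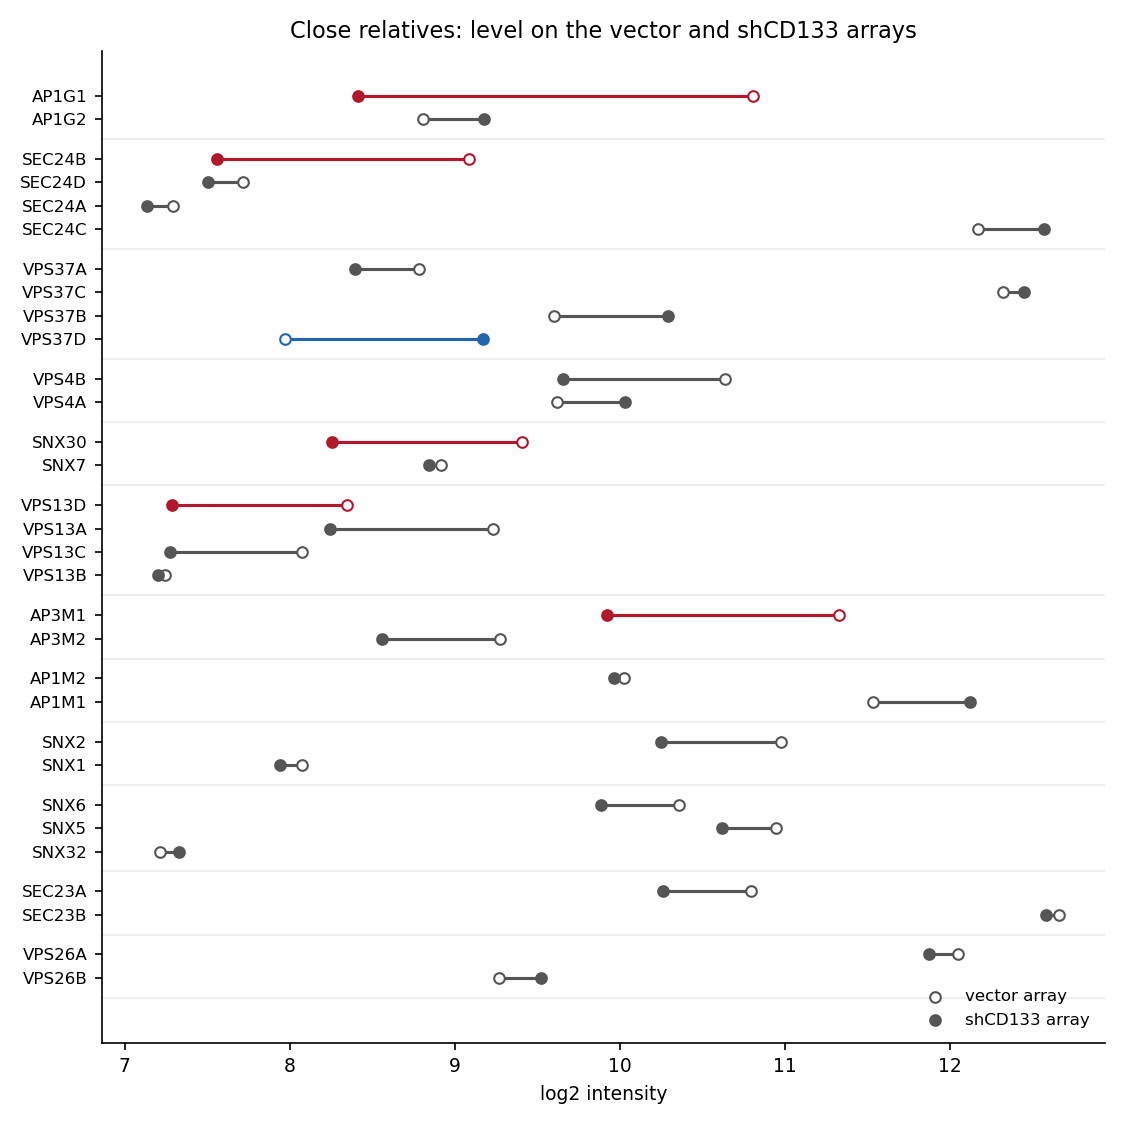
Log2 intensity (x axis) on the vector array (open points) and the shCD133 array (filled points) of genes in the 12 families with the widest span, in order of span from the top. Red marks genes at least 2-fold lower and blue at least 2-fold higher, and levels of different genes come from different probes and are not to be compared. AP1G1 moves left while AP1G2 moves right, and SEC24B moves left while SEC24C moves right.

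Gene length moved with these differences, as it did over all named genes. The 11 lower genes had a median genomic length of 98.4 kb, between 30.6 and 294.2 kb, and all 11 were longer than the median named gene (27.4 kb). The remaining 93 had a median of 42.3 kb, and 68 of all 104 were longer than the median named gene. Across the 104 genes the rank correlation (Spearman's rho) of length with difference was -0.52, and over 11571 named genes with a length it was -0.34. These correlations run across genes, which share 2 arrays and are not independent replicates. Of the 35 shortest coat and sorting genes none was at least 2-fold lower and the median was 0.28. Of the 34 in the middle 3 were lower (8.82%) and of the 35 longest 8 (22.9%), with a median of -0.22. Among all named genes in the same ranges of length the shares were 2.82%, 8.95% and 18.8%. With the trend on length removed from all genes, 7 of the 104 were at least 2-fold lower (6.73%), against 6.59% of named genes. AP1G1 (-2.16), AP4E1 (-1.46), AP3M1 (-1.38), SEC23IP (-1.30), SEC24B (-1.24), VPS36 (-1.19) and SNX27 (-1.15) were those 7, and AP3B1 (-0.79), SNX30 (-0.82), VPS13D (-0.69) and VPS8 (-0.68) were not. The part of length in the differences was not tested otherwise.

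**Figure D4:**
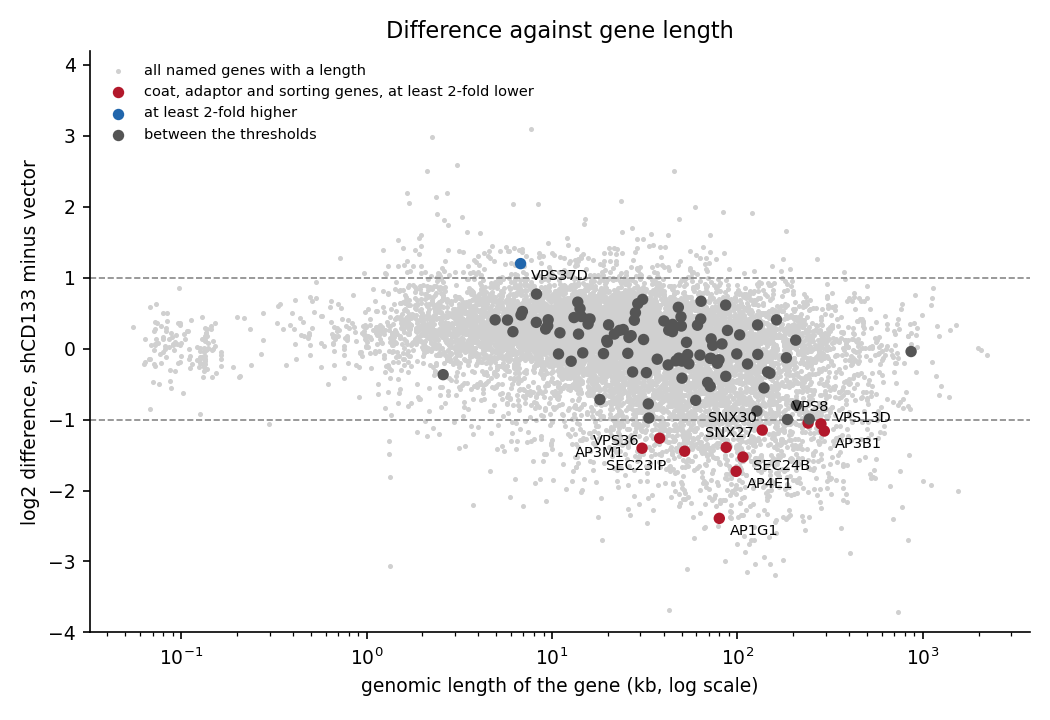
Log2 difference (shCD133 minus vector, y axis) against the genomic length of the gene in kb (x axis, log scale). Small light grey points are all named genes with a length. Larger points are coat, adaptor and sorting genes, dark grey where they are under 2-fold. Dashed lines mark 2-fold. All 11 lower genes (red) lie at 30.6 kb or more, and VPS37D (blue) is at 6.76 kb.

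The only error these arrays hold is the disagreement of probes for 1 gene, which leaves out variation between cultures and between arrays. Among the 104 genes 33 had more than 1 probe, and the SD of the difference was 0.24 per probe. In 4 of the 33 the probes lay on opposite sides of 0 (SNX10, SNX14, VPS13A and VPS26A). Of the 11 lower genes 4 had a further probe, all of those probes lay below 0, and in 3 of the 4 (AP1G1, AP3M1 and SEC24B) a second probe was also at least 2-fold lower. The other 7 rest on 1 probe. SEC24B, VPS36 and VPS13D ended under 8 on the shCD133 array, and VPS37D started under 8 on the vector array. Signal under 8 was not told from background, so the differences printed for these 4 are those of the deposited values, and the true sizes are uncertain.

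Partner genes with other names, from lists of 205 trafficking genes of which 181 had a value, were also described. Of these 19 (10.5%) lay 2-fold or more below their vector level, 0 were as much higher, and the median was 0.02. Over all named genes these were 8.26%, 2.08% and 0.11, so the lower share was near the background, and the counts per list below are read against the same 8.26%. AAK1, MIA3, TBC1D5 and GOSR1, named below, ended under 8 with shCD133, so their sizes are uncertain in the same way. In the list of ARF GTPases and COPI partners 4 of 21 were lower. The p24 cargo receptor TMED10 went from 11.03 to 9.13 (-1.89), and ARFGEF1, an activator of ARF GTPases at the trans-Golgi network, from 10.41 to 8.88 (-1.52). ARF1 itself, which recruits both COPI and AP-1, was higher by 0.40.

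Clathrin partners held 4 lower genes of 32, led by AAK1 (from 9.65 to 7.61, -2.05), the kinase of the AP-2 mu subunit, and by PICALM (-1.49, other probe -0.87), an adaptor that shapes clathrin pits. The clathrin light chains CLTA and CLTB differed by 0.04 and 0.28, and the heavy chain CLTC was at 7.36 and 7.05. Of 19 retromer, WASH and Commander partners 3 were lower, CCDC93 (-1.97, other probe -0.90), WASHC5 (-1.90) and TBC1D5 (-1.18). WASHC3, in the same complex as WASHC5, was higher by 0.95. None of 21 ESCRT partners was 2-fold different, with CHMP5 at 0.84 and STAM at -0.74 the farthest. CHMP2A differed by 0.52, with its other probes at 0.42 and 1.11.

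In the COPII list MIA3, a receptor for large cargo at exit sites, was the 1 lower gene of 19, from 8.38 to 7.26 (-1.11), and MCFD2 followed at -0.59. Of 29 tethers 4 were lower, among them the exocyst subunit EXOC2 (-1.49) and ZW10 (-1.25). Of 29 SNAREs and recycling factors 1 was, NSF, the ATPase that recycles SNAREs, at -1.15, although its other probes reached 0.27. STX10 was the highest of that list at 0.96, and GOSR1 the next lowest at -0.99 (other probe -0.59). Among 11 sorting receptors and endocytic cargoes SCARB2, the receptor that carries glucocerebrosidase to lysosomes, went from 12.90 to 10.83 (-2.07) and TFRC, the transferrin receptor, from 13.85 to 12.19 (-1.66). The mannose 6-phosphate receptors IGF2R and M6PR, cargo of AP-1, differed by -0.10 and -0.05.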

How the data were processed

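RNA of 1 vector and 1 shCD133 culture of Huh7 cells was read on an Illumina bead array. The log2 values were deposited by the authors. Their base was read as 2 from the range, 6.65 to 15.6. The submitters' processing notes list GenomeStudio 2011.1 without a role. Sorted values of both arrays agreed within 0.00044, as after quantile normalization, which forces both arrays to 1 distribution. Of 47323 probes 19665 had a value on both arrays. The filter behind the rest was not given in the sources used here. A second table's 4 value columns carry names that match neither sample and were not used, so no detection call was available.

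Probes were named from the platform annotation of 2016 (15205 with 1 symbol, 2 with several, 4458 with none). Gene length is the genomic span in RefSeq's gene table of GRCh38.p14, and all 104 symbols matched it. The members and lists were chosen with earlier results of these data known. The named genes were PROM1, members at least 2-fold different, the 3 with the largest absolute difference per group, all in families of relatives, and in each partner list the 2 with the largest absolute difference and any at least 4-fold different. Genes named beyond these were chosen after their values were seen.

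Alternatives were the mean over probes, a 1.5-fold size, centring on the median gene, removal of the lowess trend (span 0.3) on level or length with the median added back, subtraction of the lowest unlogged value with an offset of 50, and a mean level of at least 8. The steps were tested on simulated data with less noise than the probes here show and with planted changes beyond the 2-fold size. That test says little about genes near the threshold. Python 3.11.15, pandas 2.3.3 and statsmodels 0.14.6 were used. Precision is limited by the number of arrays.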

Additional observations from a re-analysis of the deposited data

How the results depend on the processing

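The count of coat and sorting genes at least 2-fold lower was 11 and ranged from 7 to 15 over the alternatives that kept the 2-fold size. It moved by over 1.5 times in 2 settings: to 7 with the trend on gene length removed (6.73% of them, against 6.59% of named genes) and to 19 at 1.5-fold (18.3%, against 16.3%). With centring or the trend on level removed VPS13A, VPS41 and VPS4B joined the 11, and VPS13C too with background subtracted (15). The mean over probes lost VPS8 and the level minimum VPS13D (10 each). The count of higher genes was 1 throughout except at 1.5-fold, where it was 7. Among partner genes 42 were lower at 1.5-fold (23.2%, against 16.3%). The count of higher ones went from 0 to 1 with the length trend removed or background subtracted and to 11 at 1.5-fold (6.08%, against 12.3%). The median difference of the 104 genes lay between 0.04 and 0.14 and turned to -0.06 after centring. Group medians that changed sign were COPII (-0.16 to 0.07), SNX-BAR (-0.10 to 0.03) and other SEC proteins (-0.07 to 0.01) with the length trend removed, and COPI (0.09 to -0.02) and retromer (0.02 to -0.09) after centring. The VPS13 median moved from -0.90 to -0.43 with the mean over probes, where FERM sorting nexins were as low (-0.43), and to -0.53 with the length trend removed. Of 96 named genes, 3 moved by more than the per-probe SD with the mean over probes and 12 with the length trend removed, and none that was 2-fold different changed direction under the alternatives run. No paired analysis was possible because each group has 1 array. Leaving out a replicate was not possible for the same reason.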
